A study of Mus musculus with 12 samples.

Results

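The dependence of the Tgfb1 effect on Ifng in mouse liver was measured as an interaction: the difference IFNko TGFB1 KO minus INFko TGFB+, less the difference TGFB KO minus Balb/c WT. All 12 arrays of the series enter it, in 4 groups of 3 assigned by their labels, and 12760 genes were tested. Balb/c WT mice are wild type and TGFB KO mice lack transforming growth factor beta 1 (Tgfb1), both with intact interferon gamma (Ifng). INFko TGFB+ mice lack Ifng and keep Tgfb1, and IFNko TGFB1 KO mice lack both genes. Every mouse was on the BALB/c background, none received a treatment named in the labels, and age is not given in the sources used here. The controls of the first pair are described as littermates that keep Tgfb1, and the labels do not say how many copies of Tgfb1 the INFko TGFB+ mice carry. Nothing in the labels ties a mouse of one group to a mouse of another, and each array is taken as 1 mouse, as the design text states for the groups it lists, which do not include INFko TGFB+.

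TGF-beta1 is a cytokine that restrains T cell activation, and BALB/c mice without it develop an acute T cell hepatitis soon after birth. IFN-gamma, made by activated T cells and NK cells, signals through its receptor and the JAK kinases, and induces the IRF1 transcription factor, antigen presentation genes, chemokines and families of large GTPases. It also restrains the proliferation of T cells and the IL-4 and IL-13 programmes of type 2 immunity. The interaction asks, gene by gene, how far the change that follows loss of Tgfb1 differs between livers with and without Ifng. A negative value means that the gene's difference was lower (or more negative) without Ifng, and a positive value the opposite. Values are log2 differences after quantile normalisation of log2(signal + 16), errors after ± are standard errors with 3 mice a group, and adjusted p-values come from limma with Benjamini-Hochberg adjustment over the 12760 genes, called under 0.05. Signals quoted per array, in the order of replicates 1, 2 and 3, are the deposited linear intensities before that normalisation.

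Each array had been scaled to a trimmed mean of 150.0 before deposit, and 11 arrays had median signals of 33.8 to 42.6. The median of IFNko TGFB1 KO 1 was 61.3. Its rank correlations with the rest ran from 0.754 to 0.809, while those between any pair of the remaining 11 ran from 0.816 to 0.912. Xist and Eif2s3y signals were those of 1 female and 2 male mice in every group. Hepatocyte markers (7 of 9 with a probe set) were present on every array, with summed signals of 85548 to 154486 and a lowest single signal of 826. IFNko TGFB1 KO 2 had the lowest of those sums, and also the highest sums for T cell, B cell, eosinophil and neutrophil markers. Because whole liver was profiled, fewer cells of a type and less RNA per cell cannot be told apart anywhere in these data.

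Tgfb1 signals were 391, 455 and 110.0 in Balb/c WT, 71.2, 87.6 and 45.5 in TGFB KO, 221, 163 and 180.2 in INFko TGFB+ and 24.9, 52.1 and 43.8 in IFNko TGFB1 KO. The groups without Tgfb1 lay below those with it in both pairs, with differences of -1.82 ± 0.44 (adjusted p = 0.0105) and -2.04 ± 0.44 (adjusted p = 0.00557). Ifng signals were 23.3, 25.9 and 5.95 in Balb/c WT, 85.9, 94.3 and 202 in TGFB KO, 7.56, 1.06 and 7.45 in INFko TGFB+ and 83.9, 54.3 and 44.6 in IFNko TGFB1 KO. The arrays labelled IFNko TGFB1 KO therefore gave a signal for Ifng above those of INFko TGFB+ and below those of TGFB KO. Where the probe set lies relative to the disrupted part of Ifng is not stated in the labels, and the signal does not check the genotype. Groups are called by their labels throughout. Neither gene's own interaction was called, at -0.21 ± 0.62 for Tgfb1 (adjusted p = 0.929) and -0.44 ± 0.42 for Ifng (adjusted p = 0.75).

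Loss of Tgfb1 had a different effect without Ifng on 111 genes, 0.87% of those tested. Of these, 80 had a negative interaction (0.627% of all genes) and 31 a positive one (0.243%). The negative genes were led by the matrix metalloproteinase Mmp13 and by interferon-gamma targets (Cxcl9, Acod1, Cxcl11, H2-Eb1, Ubd, Igtp), and the positive ones by the decoy receptor Il13ra2, the matrix proteoglycan Lum and genes of stellate cells and T cells. At an unadjusted p under 0.05 the split was near even, with 735 negative genes (5.76%) and 775 positive ones (6.07%), 1510 in either direction (11.8%). The median over all genes was 0.0099, with 6280 genes below 0 (49.2%) and 6480 above it (50.8%). The smallest called value had a size of 1.15, and the median 95% interval reached 0.774 to either side, so changes under about 2-fold were mostly not detectable. With each array centred on its median instead of quantile normalised, the split was 101 negative and 9 positive, and the median of all genes was -0.25. With the deposited scaling alone it was 78 and 31.

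In the separate pairs, which share no arrays, loss of Tgfb1 raised 1553 genes (12.2%) and lowered 1524 (11.9%) with Ifng intact, and raised 1618 (12.7%) and lowered 1673 (13.1%) without it. The 111 genes divide by the size of these 2 differences, with 2-fold as the bound (a description by size, not a test). Among the 80 negative genes, 55 were at least 2-fold higher in TGFB KO than in Balb/c WT and differed by under 2-fold without Ifng. A further 16 were at least 2-fold higher in both pairs. For 5 genes the difference was higher with Ifng and lower without it (Iigp1, Irgm2, Irgm1, Gdap10 and Gm4951). The other 4 differed by under 2-fold with Ifng and were lower without it (Cyp2f2, Nampt, Selenbp1 and 2810414N06Rik). Among the 31 positive genes, 14 differed by under 2-fold with Ifng and were higher without it, and 9 were lower with Ifng and differed by under 2-fold without it. In 5 the difference was higher in both pairs, more so without Ifng (Ly6d, Cxcr6, Cd3g, Trav9d-3 and Trbv1), in Lum and Lrat it was lower with Ifng and higher without it, and Col14a1 stayed under 2-fold in both. In the livers that keep Tgfb1, INFko TGFB+ against Balb/c WT, the Ifng difference was smaller than in the livers without Tgfb1 for all of the 111 except Nwd1, whose values were 1.43 and -0.99.

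**Figure D1:**
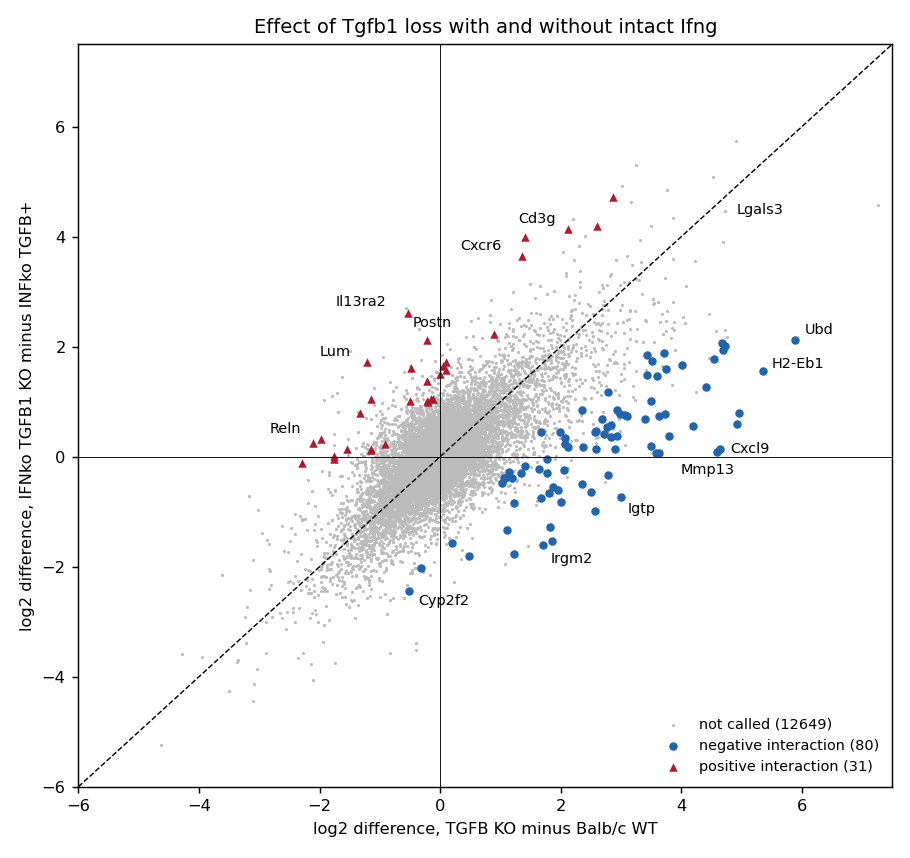
Each point is a gene, with its log2 difference TGFB KO minus Balb/c WT on the x axis and IFNko TGFB1 KO minus INFko TGFB+ on the y axis. The dashed line marks equal differences; the 80 called negative genes lie below it, mostly to the right of 0 and near 0 on the y axis, and the 31 called positive genes lie above it.

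The interferon-gamma inducible GTPases, which attack vacuoles of intracellular pathogens, held the most concentrated set of negative calls. Of 11 tested guanylate-binding proteins and immunity-related GTPases, 10 had a called negative interaction, against 0.627% of all genes, and none a positive one. The list median was -3.32 against 0.0099 over all genes. Gbp3 was the exception, at -1.83 ± 0.38 (adjusted p = 0.052). All 11 rose with loss of Tgfb1 when Ifng was intact (median difference 2.77), whereas without Ifng 2 rose and 5 fell (median -0.24). Over all genes, 12.2% rose with Ifng, and 12.7% rose and 13.1% fell without it. Igtp signals were 1041, 661 and 903 in Balb/c WT, 6568, 7316 and 7471 in TGFB KO, 614, 631 and 492 in INFko TGFB+ and 281, 441 and 313 in IFNko TGFB1 KO. Every TGFB KO array was above every Balb/c WT array, and every IFNko TGFB1 KO array was below every INFko TGFB+ array. Igtp thus rose by 2.99 ± 0.21 with Ifng and fell without it, a difference of -0.73 ± 0.21 (adjusted p = 0.024), for an interaction of -3.72 ± 0.30 (adjusted p = 0.000123). Irgm2 signals were 418, 406 and 602 in Balb/c WT, 1787, 1327 and 1649.6 in TGFB KO, 419, 368 and 315 in INFko TGFB+ and 122, 108 and 141 in IFNko TGFB1 KO. Here the reversal was nearly symmetrical, at 1.71 ± 0.21 with Ifng and -1.60 ± 0.21 without it, and the interaction was -3.32 ± 0.30 (adjusted p = 0.000322). Iigp1, an immunity-related GTPase that gathers on parasite vacuoles, gave 4399, 2637 and 5531 in Balb/c WT, 14043, 12666 and 14875 in TGFB KO, 3811, 4604 and 4011 in INFko TGFB+ and 1478, 871 and 1521 in IFNko TGFB1 KO. Its differences were 1.85 ± 0.30 and -1.53 ± 0.30, and its interaction -3.38 ± 0.42 (adjusted p = 0.00357). Irgm1 (interaction -3.10 ± 0.23) and Gbp6 (-3.56 ± 0.29) also passed the test in opposite directions in the 2 pairs.

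The guanylate-binding proteins Gbp2b and Gbp2 rose steeply with Ifng and did not pass the test without it. Gbp2b signals were 249, 161 and 186 in Balb/c WT, 4143, 3542 and 4184 in TGFB KO, 118, 107 and 128 in INFko TGFB+ and 188, 271 and 153 in IFNko TGFB1 KO. The TGFB KO arrays stood far above all others, and the IFNko TGFB1 KO arrays overlapped Balb/c WT in range. The difference was 4.19 ± 0.20 with Ifng and 0.56 ± 0.20 without it (adjusted p = 0.0667), and the interaction -3.63 ± 0.29 (adjusted p = 0.000123). Gbp2 gave 3.80 ± 0.18 and 0.38 ± 0.18, with an interaction of -3.42 ± 0.26. Members of these families are close in sequence, and cross-hybridisation between their probe sets was not tested. Over all 111 called genes, 13 passed the test in opposite directions in the 2 pairs, 10 with a negative and 3 with a positive interaction. Besides the GTPases, Lum and the predicted gene Gm4951 (-2.99 ± 0.44), those with the next largest interactions were the interferon-stimulated ubiquitin ligase gene Herc6 (-2.46 ± 0.32) and Gdap10 (-2.44 ± 0.40), whose differences were 1.10 and -1.34.

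Promoters of 5 negative genes are shown because they hold letters of motifs known from interferon-gamma signalling. The motifs searched were a gamma-activated site, TTCNNNGAA, and an interferon-stimulated response element, GAAA and GAAA with any 2 bases between them, which IRF factors bind, each on both strands. The 2 motifs can share bases where a GAA of one runs into the other. The windows run from 250 bases before to 50 after the annotated start, from RefSeq on GRCm38.p6, and capitals mark the matches. The first 4 are the most negative genes whose window holds a match, and Irgm2 was added after its values were seen, because its window resembles that of Igtp. They lie at chr9:7272264-7272563, plus strand (Mmp13), chr11:58199306-58199605, plus strand (Igtp), chr3:142594597-142594896, plus strand (Gbp2b), chr15:77643237-77643536, minus strand (Apol11b) and chr11:58214727-58215026, plus strand (Irgm2).
Mmp13: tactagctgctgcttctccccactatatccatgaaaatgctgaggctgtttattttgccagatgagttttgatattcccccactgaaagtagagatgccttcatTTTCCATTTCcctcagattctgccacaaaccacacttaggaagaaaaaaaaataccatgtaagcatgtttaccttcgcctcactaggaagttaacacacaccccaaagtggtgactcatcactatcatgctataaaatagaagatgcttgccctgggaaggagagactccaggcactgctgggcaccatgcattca
Igtp: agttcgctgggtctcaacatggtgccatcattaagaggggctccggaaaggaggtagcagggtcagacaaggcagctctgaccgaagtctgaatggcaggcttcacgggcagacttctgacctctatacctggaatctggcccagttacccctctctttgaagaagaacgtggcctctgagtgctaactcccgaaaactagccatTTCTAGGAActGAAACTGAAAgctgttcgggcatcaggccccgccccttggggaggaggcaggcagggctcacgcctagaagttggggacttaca
Gbp2b: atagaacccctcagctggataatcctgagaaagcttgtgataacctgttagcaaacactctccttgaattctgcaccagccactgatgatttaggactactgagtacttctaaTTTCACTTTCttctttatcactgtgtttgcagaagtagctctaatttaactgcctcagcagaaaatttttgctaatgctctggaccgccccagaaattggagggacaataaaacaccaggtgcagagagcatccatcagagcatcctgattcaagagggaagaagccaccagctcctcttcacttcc
Apol11b: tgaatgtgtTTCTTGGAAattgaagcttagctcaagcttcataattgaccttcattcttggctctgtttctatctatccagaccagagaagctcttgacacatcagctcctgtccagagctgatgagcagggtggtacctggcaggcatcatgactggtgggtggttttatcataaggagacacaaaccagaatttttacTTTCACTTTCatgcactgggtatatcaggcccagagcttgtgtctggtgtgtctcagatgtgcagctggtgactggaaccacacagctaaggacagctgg
Irgm2: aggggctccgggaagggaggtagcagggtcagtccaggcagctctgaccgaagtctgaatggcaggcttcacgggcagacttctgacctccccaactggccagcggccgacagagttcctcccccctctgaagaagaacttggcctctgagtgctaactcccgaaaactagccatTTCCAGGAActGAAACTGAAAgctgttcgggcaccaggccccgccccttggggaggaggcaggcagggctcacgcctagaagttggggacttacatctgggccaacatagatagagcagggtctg

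In Igtp the first match begins 45 bases before the start (gamma-activated site) and the next 34 bases before it (response element). In Irgm2 the same pair begins 75 and 64 bases before the start, and the windows of these neighbouring genes on chromosome 11 share an unbroken run of 61 bases. Response elements begin 146 bases before the start of Mmp13, 137 before that of Gbp2b and 50 before that of Apol11b, which also holds a gamma-activated site 241 bases before it. The windows of Cxcl9, Acod1, H2-Eb1 and Ubd held no match, which says only that these letters do not occur in them. Among called genes with a window, 22 of 60 negative genes (36.7%) and 2 of 20 positive genes (10%) held either motif, against 1168 of 10293 tested genes (11.3%) and 3495 of 27025 promoters in all (12.9%). For the response element alone the shares were 25.0% of the negative genes, 5.0% of the positive genes and 3.65% of the tested genes. For the gamma-activated site they were 20%, 5.0% and 8.24%. A match is a description of the sequence, not evidence of binding in these livers.

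Other interferon-gamma inducible effectors were also lower without Ifng, led by the CXCR3 chemokine ligands that draw activated T cells. Of 18 tested genes, 10 had a called negative interaction, against 0.627% of all genes, and none a positive one, with a median of -2.27. All 18 rose with loss of Tgfb1 when Ifng was intact, and 12 rose without it, against 12.2% and 12.7% of all genes. Cxcl9 signals were 276, 106 and 302 in Balb/c WT, 6135, 5350.1 and 6907 in TGFB KO, 42.3, 55.8 and 43.3 in INFko TGFB+ and 76.5, 54.0 and 70.0 in IFNko TGFB1 KO. The 3 TGFB KO arrays were more than an order of magnitude above any other array, and the groups without Ifng overlapped each other. Cxcl9 rose by 4.64 ± 0.29 with Ifng (adjusted p = 2.67e-06) and differed by 0.13 ± 0.29 without it (adjusted p = 0.777), for an interaction of -4.50 ± 0.42 (adjusted p = 0.000371). Cxcl11 signals were 5.37, 4.07 and 32.9 in Balb/c WT, 897, 619 and 1099 in TGFB KO, 42.9, 38.0 and 3.31 in INFko TGFB+ and 98.8, 44.0 and 54.7 in IFNko TGFB1 KO. Its baseline signals were close to the dim end of the arrays, and its interaction was -4.16 ± 0.65 (adjusted p = 0.0119). Cxcl10, the third ligand of CXCR3, gave 1314, 945 and 887 in TGFB KO and 190.0, 133 and 124 in IFNko TGFB1 KO, and rose in both pairs (2.98 ± 0.21 and 0.78 ± 0.21), with an interaction of -2.19 ± 0.30 (adjusted p = 0.00631).

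Acod1 signals were 64.4, 1.92 and 3.31 in Balb/c WT, 1065, 702 and 1009 in TGFB KO, 1.47, 1.85 and 1.26 in INFko TGFB+ and 31.9, 11.01 and 3.36 in IFNko TGFB1 KO. Acod1 makes itaconate in activated macrophages, and its TGFB KO arrays stood far above arrays that were otherwise near the floor. Its interaction was -4.32 ± 0.66 (adjusted p = 0.0105). The mean log2 level of Acod1 was 9.85 in TGFB KO but 4.93 in Balb/c WT, 4.17 in INFko TGFB+ and 4.77 in IFNko TGFB1 KO. All but the first lie under the filter level of 5.25, so Acod1 was tested only because of TGFB KO. Ubd signals were 211, 49.5 and 46.8 in Balb/c WT, 6493, 6754 and 5484 in TGFB KO, 18.6, 20.01 and 30.3 in INFko TGFB+ and 201, 133 and 196 in IFNko TGFB1 KO. Ubd encodes the ubiquitin-like modifier FAT10, and it rose in both pairs, by 5.89 ± 0.41 with Ifng and 2.13 ± 0.41 without it (adjusted p = 0.00315). Its interaction of -3.77 ± 0.58 (adjusted p = 0.0112) thus marks a smaller rise rather than none. Ly6i (-3.31 ± 0.38), a lymphocyte antigen 6 family member, and Cd274 (-2.34 ± 0.42), which encodes the checkpoint ligand PD-L1, were among the other called members. Ly6i differed by 3.50 ± 0.27 with Ifng and by 0.19 ± 0.27 without it. It fell under the filter when any 1 TGFB KO array was left out, so Ly6i was tested only because of TGFB KO. Cd274 signals reached 1067, 686 and 1062 in TGFB KO and 112, 115 and 73.4 in IFNko TGFB1 KO, a rise in both pairs, and its adjusted p of 0.0258 moved to between 0.0555 and 0.07995 when any 1 of 5 arrays was left out (Balb/c WT 3, TGFB KO 1, TGFB KO 3, INFko TGFB+ 1 and INFko TGFB+ 2). The Cd274 call was also lost with the deposited scaling (adjusted p = 0.0511), array weights (0.0654) and a pseudocount of 1 (0.298). With a pseudocount of 1 in place of 16, the calls of Mmp13, Acod1, Cxcl11, Ubd and Apol11b were lost (adjusted p of 0.101, 0.237, 0.161, 0.07 and 0.0593).

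MHC class II genes, which present extracellular antigen to CD4 T cells, mostly rose in both pairs, and for 4 members of the list the rise was smaller without Ifng. Of 9 tested members, 4 had a called negative interaction, against 0.627% of all genes, and none a positive one, the median interaction being -2.71. All 9 rose with loss of Tgfb1 when Ifng was intact (median 4.41) and 7 without it (median 1.77), against 12.2% and 12.7% of all genes. H2-Eb1 signals were 339, 107 and 172 in Balb/c WT, 8698, 8662 and 8484 in TGFB KO, 167, 157 and 148 in INFko TGFB+ and 424, 818 and 351 in IFNko TGFB1 KO. The TGFB KO arrays lay close together at the top, and the IFNko TGFB1 KO arrays were above both groups that keep Tgfb1. H2-Eb1 rose by 5.35 ± 0.36 and by 1.55 ± 0.36 (adjusted p = 0.00817), and its interaction was -3.79 ± 0.50 (adjusted p = 0.00518). H2-Ab1 (-2.77 ± 0.38), H2-Aa (-2.71 ± 0.44) and the peptide-loading gene H2-DMa (-3.15 ± 0.55) were the other called members. The class II gene H2-Ea, which is outside the list, was also called (-2.60 ± 0.42, adjusted p = 0.015), with rises of 4.67 and 2.07. H2-Aa lost its call without TGFB KO 1 or INFko TGFB+ 2, and H2-DMa without any 1 of 7 arrays (Balb/c WT 2, Balb/c WT 3, the 3 TGFB KO arrays, INFko TGFB+ 2 and INFko TGFB+ 3). Ciita signals were 31.5, 46.1 and 9.24 in Balb/c WT, 469.7, 329 and 114 in TGFB KO, 29.0, 2.94 and 40.05 in INFko TGFB+ and 13.5, 22.6 and 6.97 in IFNko TGFB1 KO. Ciita, the master transactivator of class II genes, rose by 2.73 ± 0.53 with Ifng and differed by -0.46 ± 0.53 without it, but its interaction of -3.19 ± 0.75 was not called (adjusted p = 0.0867).

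Class I presentation genes load peptides for CD8 T cells. Of 16 tested, 2 had a called negative interaction and none a positive one, with a median of -1.01 and 15 values below 0. The shares over all genes were 0.627% called negative and 49.2% below 0. Psmb9 signals were 729.7, 535 and 471 in Balb/c WT, 3484, 3685 and 3134 in TGFB KO, 392, 343 and 322 in INFko TGFB+ and 335, 762 and 455 in IFNko TGFB1 KO. TGFB KO alone stood out, and the interaction of this immunoproteasome subunit was -2.11 ± 0.37 (adjusted p = 0.0245). The peptide transporter Tap1 gave -2.30 ± 0.47 (adjusted p = 0.047). Both calls are fragile: Psmb9 kept its call only without Balb/c WT 1, IFNko TGFB1 KO 1, 2 or 3, and Tap1 only without IFNko TGFB1 KO 1 or 2. B2m, the common light chain, had signals of 17961, 16521 and 17121 in TGFB KO and 9216, 9559.7 and 10716 in IFNko TGFB1 KO, and its interaction of -1.03 ± 0.21 narrowly missed the threshold (adjusted p = 0.0523).

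The list named for type I interferon holds antiviral genes that IFN-gamma also induces in part. All 24 tested members had values below 0, against 49.2% of all genes; 9 were called negative and none positive, and the median was -1.58. With Ifng 22 rose after loss of Tgfb1, and without it 5 rose and 4 fell. Over all genes, 0.627% were called negative, 12.2% rose with Ifng, and 12.7% rose and 13.1% fell without it. Ifit2 signals were 93.5, 89.1 and 93.8 in Balb/c WT, 878, 889.5 and 803 in TGFB KO, 90.5, 87.9 and 95.2 in INFko TGFB+ and 148, 147 and 129.6 in IFNko TGFB1 KO. Its arrays agreed closely within each group, and TGFB KO alone was high, so its interaction of -2.55 ± 0.19 had the smallest standard error of the 111 called genes (adjusted p = 0.000122). Oasl2 (-3.11 ± 0.43), Bst2 (-2.06 ± 0.25) and Herc6 were also called, while Oasl1 (-2.85 ± 0.69, adjusted p = 0.0949) was not. Herc6 signals ran from 592, 648 and 737 in TGFB KO to 137, 129 and 136 in IFNko TGFB1 KO, the latter below every INFko TGFB+ array (192, 202 and 188).

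Of 19 tested receptor, kinase and transcription factor genes of the pathway itself, 2 had a called negative interaction, against 0.627% of all genes. None had a called positive one, and the median was -0.77. At an unadjusted p under 0.05 by limma, 10 of the 19 were negative, against 5.76% of all genes. Irf8 signals were 221, 168 and 216 in Balb/c WT, 2900.2, 1978 and 2344 in TGFB KO, 199.8, 182 and 210.2 in INFko TGFB+ and 485, 767 and 517 in IFNko TGFB1 KO. Irf8, a myeloid IRF, rose in both pairs, by 3.43 ± 0.21 and 1.48 ± 0.21, with an interaction of -1.95 ± 0.29 (adjusted p = 0.00963). Irf1, a transcription factor gene induced early by interferons, had signals of 2524, 1775 and 1856 in TGFB KO and 363, 516 and 329 in IFNko TGFB1 KO. It rose by 2.07 ± 0.21 with Ifng and differed by 0.23 ± 0.21 without it, giving -1.85 ± 0.30 (adjusted p = 0.0157), a call lost without INFko TGFB+ 1 or 2 (adjusted p of 0.0537 to 0.0553). Neither receptor chain was called, at -0.14 ± 0.38 for Ifngr1 (adjusted p = 0.927) and 0.28 ± 0.34 for Ifngr2 (adjusted p = 0.809).

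Some of the most negative genes belong to no interferon list. Mmp13 signals were 29.7, 2.11 and 11.7 in Balb/c WT, 761, 367 and 1017 in TGFB KO, 18.8, 3.85 and 12.01 in INFko TGFB+ and 10.4, 38.2 and 7.38 in IFNko TGFB1 KO. Mmp13, a collagenase of the interstitial matrix, was thus high in TGFB KO alone, and its interaction of -4.50 ± 0.65 (adjusted p = 0.00793) is as large as that of Cxcl9. Its mean log2 level was 9.39 in TGFB KO but 4.80 in Balb/c WT, 4.81 in INFko TGFB+ and 4.90 in IFNko TGFB1 KO. The last 3 lie under the filter level of 5.25, so Mmp13 was tested only because of TGFB KO. Over the alternatives its value ran from -5.98 to -3.17. Pigr signals were 201, 107 and 142 in Balb/c WT, 2245, 2304 and 1558 in TGFB KO, 87.5, 155 and 106 in INFko TGFB+ and 182, 102 and 127 in IFNko TGFB1 KO. Pigr carries IgA across epithelia into bile, and it rose by 3.59 ± 0.28 with Ifng and differed by 0.07 ± 0.28 without it, an interaction of -3.52 ± 0.40 (adjusted p = 0.00204). Apol11b, an apolipoprotein L family gene, had signals of 757, 473 and 305 in TGFB KO and 51.8, 6.25 and 21.3 in IFNko TGFB1 KO, and its interaction was -3.57 ± 0.51 (adjusted p = 0.00711). Baat signals were 74.2, 31.7 and 105 in Balb/c WT, 396, 541 and 445 in TGFB KO, 62.4, 139.6 and 83.6 in INFko TGFB+ and 96.5, 33.1 and 69.5 in IFNko TGFB1 KO. Baat conjugates bile acids with glycine or taurine, and it rose by 2.50 ± 0.37 with Ifng only, with an interaction of -3.14 ± 0.52 (adjusted p = 0.017), called neither without TGFB KO 2 or 3 nor without INFko TGFB+ 2 (adjusted p of 0.0517 to 0.0537). It was the only called gene of the 29 tested for bile acid synthesis and transport, against 0.627% of all genes called negative.

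Il1b, the inflammatory cytokine, rose in both pairs, by 3.71 ± 0.26 with Ifng and 1.89 ± 0.26 without it, with signals of 1462, 909.6 and 1317 in TGFB KO and 481, 443 and 299 in IFNko TGFB1 KO. Its interaction was -1.82 ± 0.36 (adjusted p = 0.0421). Ddit3, the stress transcription factor CHOP, had signals of 519, 297 and 325 in TGFB KO and 102, 111 and 133 in IFNko TGFB1 KO, where it did not differ past the threshold from INFko TGFB+ (-0.03 ± 0.25). Its interaction was -1.80 ± 0.35 (adjusted p = 0.0381). Cyp2f2 signals were 1173, 966 and 1113 in Balb/c WT, 847, 819 and 600.0 in TGFB KO, 1161, 1436 and 1281 in INFko TGFB+ and 222, 158 and 321 in IFNko TGFB1 KO. Cyp2f2, a P450 of periportal hepatocytes, was unlike the others in that IFNko TGFB1 KO alone was low, with differences of -0.51 ± 0.25 and -2.44 ± 0.25 and an interaction of -1.93 ± 0.36 (adjusted p = 0.0308). These 3 calls are weak, since leaving out any 1 of 10 arrays for Il1b, 10 for Ddit3 and 9 for Cyp2f2 took the adjusted p above 0.05, to at most 0.128, 0.119 and 0.103.

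**Figure D2:**
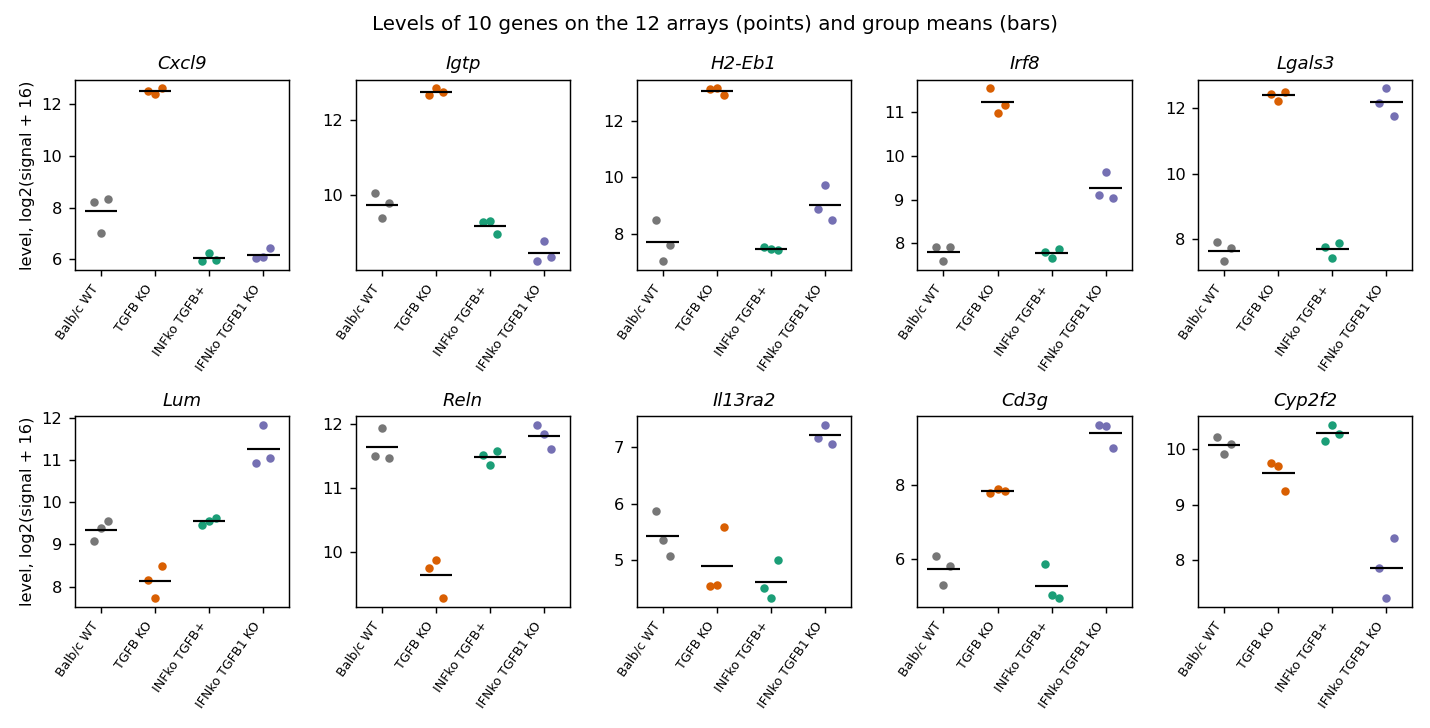
Points are the 12 arrays, 3 a group, bars are group means, and the y axis of each panel is the quantile-normalised log2(signal + 16) of the gene named above it. Cxcl9, Igtp and H2-Eb1 are highest in TGFB KO, Lgals3 is alike in TGFB KO and IFNko TGFB1 KO, Lum, Il13ra2 and Cd3g are highest in IFNko TGFB1 KO, Reln is lowest in TGFB KO and Cyp2f2 is lowest in IFNko TGFB1 KO.

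Extracellular matrix and stellate cell genes carried the largest group of positive interactions. Of 32 tested, 9 had a called positive interaction, and 1, Mmp13, a negative one, with a median of 0.89 (0.57 with median centring) and 24 values above 0. Over all genes, 0.243% were called positive, 0.627% negative, and 50.8% lay above 0. With Ifng 6 rose and 4 fell after loss of Tgfb1, and without it 18 rose and none fell. The shares over all genes were 12.2% and 11.9% with Ifng, and 12.7% and 13.1% without it. The list's counts with Ifng are therefore near those of all genes. Lum signals were 518, 654 and 754 in Balb/c WT, 273, 202 and 352 in TGFB KO, 696, 750.0 and 804 in INFko TGFB+ and 1646, 3254 and 2105 in IFNko TGFB1 KO. Every TGFB KO array was below every array of the groups that keep Tgfb1, and every IFNko TGFB1 KO array was above them. Lum fell by 1.22 ± 0.26 with Ifng (adjusted p = 0.00596) and rose by 1.72 ± 0.26 without it (adjusted p = 0.00087), for an interaction of 2.94 ± 0.37 (adjusted p = 0.00357). Lrat signals were 377, 376 and 398 in Balb/c WT, 141, 189 and 182 in TGFB KO, 334, 339.9 and 360.0 in INFko TGFB+ and 713, 816 and 586 in IFNko TGFB1 KO. Lrat, which stores retinol as esters in quiescent stellate cells, went the same way, with differences of -1.14 ± 0.18 and 1.05 ± 0.18 and an interaction of 2.19 ± 0.25 (adjusted p = 0.00204). Reln signals were 2941, 4271 and 2978 in Balb/c WT, 858, 937 and 619.5 in TGFB KO, 3119, 2762 and 3315 in INFko TGFB+ and 3220.2, 3264 and 3005 in IFNko TGFB1 KO. Reln, a secreted glycoprotein that marks stellate cells in liver, was low in TGFB KO only, and its differences were -1.98 ± 0.20 and 0.33 ± 0.20 (interaction 2.31 ± 0.29, adjusted p = 0.00357). Averaging every probe set of Reln removed its call (adjusted p = 0.296). Postn signals were 1359, 1500.1 and 1289 in Balb/c WT, 1311, 922 and 1282 in TGFB KO, 1488, 1252 and 1498 in INFko TGFB+ and 5090.0, 8154 and 4279.6 in IFNko TGFB1 KO. The matricellular protein gene Postn showed the third pattern, unchanged past the threshold with Ifng (-0.21 ± 0.23) and higher without it (2.13 ± 0.23), with an interaction of 2.34 ± 0.32 (adjusted p = 0.00641).

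The remaining called members were Tagln (2.10 ± 0.40), a smooth muscle actin-binding gene, the gelatinase Mmp2 (1.78 ± 0.32), Pdgfra (1.62 ± 0.30), Timp2 (1.60 ± 0.31) and the proteoglycan gene Dcn (adjusted p = 0.0187). Mmp2 fell with Ifng (-1.76 ± 0.23) and not past the threshold without it (0.02 ± 0.23), whereas Tagln rose without Ifng only (1.61 ± 0.28). Tagln lost its call without any 1 of 10 arrays and Mmp2 without any 1 of 8, with adjusted p up to 0.108 and 0.092. The main fibrillar collagens were not called, Col1a1 at 0.85 ± 0.73 (adjusted p = 0.715) and Col3a1 at 0.90 ± 0.29 (adjusted p = 0.238). Summed signals of the 4 stellate markers were 3518 to 4869 in Balb/c WT, 1094 to 1296 in TGFB KO, 3307 to 3841 in INFko TGFB+ and 4048 to 4944 in IFNko TGFB1 KO. The markers are Lrat, Reln, Des and Pdgfra. Of these, Lrat, Reln and Pdgfra are called genes named above and Reln gives most of the sum, which is therefore no separate measure of stellate cells. How far these results follow the number of stellate cells was not tested.

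Several other genes were low in TGFB KO and not in IFNko TGFB1 KO. Prom1 signals were 1174, 1297 and 1310.4 in Balb/c WT, 212, 189 and 353 in TGFB KO, 1306, 1212 and 1532 in INFko TGFB+ and 1363, 734 and 1417 in IFNko TGFB1 KO. Prom1, a membrane glycoprotein of progenitor and epithelial cells, gave -2.29 ± 0.29 and -0.11 ± 0.29, an interaction of 2.18 ± 0.41 (adjusted p = 0.0321) that lost its call without any 1 of 10 arrays. Cd209f, a C-type lectin, had signals of 150.1, 155 and 250.2 in Balb/c WT, 15.6, 54.8 and 25.2 in TGFB KO and 240.2, 279 and 289.7 in IFNko TGFB1 KO, for an interaction of 2.36 ± 0.41 (adjusted p = 0.0216), not called without TGFB KO 3, INFko TGFB+ 2 or INFko TGFB+ 3. Igfbp3 signals were 656, 737 and 769 in Balb/c WT, 247, 210.1 and 161 in TGFB KO, 695, 671 and 734 in INFko TGFB+ and 679.5, 591 and 647 in IFNko TGFB1 KO. Igfbp3, the main carrier of IGFs in blood and a product of non-parenchymal liver cells, fell in TGFB KO (-1.76 ± 0.18), while IFNko TGFB1 KO overlapped INFko TGFB+ in range (-0.04 ± 0.18), for an interaction of 1.72 ± 0.25 (adjusted p = 0.00793). With median centring the call was lost (adjusted p = 0.1). Igf2 followed the same order (7499, 2637 and 2672 in TGFB KO against 11940.3, 9057 and 14058 in IFNko TGFB1 KO), but its interaction of 1.71 ± 0.49 was not called (adjusted p = 0.168). Capn6, a calpain-like gene without protease activity, fell with Ifng (-1.33 ± 0.24) and rose without it (0.79 ± 0.24), with an interaction of 2.12 ± 0.34 (adjusted p = 0.015), lost without INFko TGFB+ 2 (adjusted p = 0.0549) and with median centring (0.0783).

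Il13ra2, the decoy receptor for IL-13, had the highest positive interaction among the called genes. Il13ra2 signals were 46.5, 25.6 and 16.4 in Balb/c WT, 6.49, 6.89 and 29.6 in TGFB KO, 6.29, 3.16 and 14.2 in INFko TGFB+ and 149, 168 and 120.4 in IFNko TGFB1 KO. Only IFNko TGFB1 KO was well above the dim range of the other groups, with differences of -0.54 ± 0.31 with Ifng and 2.60 ± 0.31 without it and an interaction of 3.14 ± 0.43 (adjusted p = 0.00641). Il13ra2 passed the filter through that group, since its mean level over the other arrays was under the filter level. Against 0.243% of all genes called positive, it was the only call among 20 tested genes of the IL-4 and IL-13 response, whose median was 0.77. That median was 1.40 without IFNko TGFB1 KO 1, 0.11 without IFNko TGFB1 KO 2 and 0.47 without TGFB KO 2. Retnla signals were 85.7, 47.0 and 14.3 in Balb/c WT, 30.7, 23.5 and 15.5 in TGFB KO, 40.4, 9.70 and 38.1 in INFko TGFB+ and 139.9, 1004 and 161 in IFNko TGFB1 KO. Retnla, an alternative macrophage activation gene, had a value of 3.26 ± 0.97 that was not called (adjusted p = 0.191), since its IFNko TGFB1 KO arrays ranged widely. The eosinophil and type 2 markers, which include Retnla itself, summed to 4988 on IFNko TGFB1 KO 2 against 392 and 1445 on the other 2 arrays of the group. Their part in the result was not tested. Arg1, which type 2 cytokines induce in macrophages and hepatocytes express for the urea cycle, had a value of the opposite sign, -1.41 ± 0.35 (adjusted p = 0.11).

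Most T cell genes rose in both pairs, and 1 had an interaction past the threshold. Of 19 tested T cell markers, 18 had values above 0, against 50.8% of all genes, with a median of 1.06 (0.69 with a pseudocount of 64); 1 was called. With Ifng 16 rose after loss of Tgfb1 and without it all 19 did. The shares over all genes were 12.2% and 12.7%, and 0.243% were called positive. Cd3g signals were 54.0, 23.7 and 36.8 in Balb/c WT, 208, 231 and 216 in TGFB KO, 39.4, 14.1 and 12.9 in INFko TGFB+ and 676, 753 and 501 in IFNko TGFB1 KO. Both groups that keep Tgfb1 were lowest, TGFB KO lay between and IFNko TGFB1 KO was highest, the latter groups without overlap. Cd3g, a chain of the T cell receptor complex, rose by 2.13 ± 0.28 and 4.14 ± 0.28, an interaction of 2.01 ± 0.40 (adjusted p = 0.0416) that lost its call without any 1 of 9 arrays, to an adjusted p of at most 0.135. The receptor segment Trav9d-3, one of a family of near-identical copies, had signals of 536, 467 and 445 in TGFB KO and 1464, 1643 and 1225 in IFNko TGFB1 KO and an interaction of 1.85 ± 0.30 (adjusted p = 0.015), lost without TGFB KO 3 or INFko TGFB+ 2 and with median centring (adjusted p = 0.0752). Ms4a4b (1.91 ± 0.40, adjusted p = 0.0523) and Cd3d (2.13 ± 0.56, adjusted p = 0.132) were not called. Summed T cell markers (6 of 7 with a probe set, Cd3g among them) were 115 to 148 in Balb/c WT, 664 to 813 in TGFB KO, 58.6 to 128 in INFko TGFB+ and 1665 to 2693 in IFNko TGFB1 KO.

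Among 25 Th1 and cytotoxic effector genes 1 was called, Cxcr6, a chemokine receptor of tissue-resident T and NK cells, and the median was 0.71 (1.14 with the filter at the 60th percentile). Positive calls made up 0.243% of all genes. Cxcr6 signals were 52.7, 55.1 and 26.1 in Balb/c WT, 103, 129 and 195 in TGFB KO, 56.7, 33.3 and 20.3 in INFko TGFB+ and 661, 711 and 549.6 in IFNko TGFB1 KO. It rose by 1.36 ± 0.30 with Ifng and 3.65 ± 0.30 without it, an interaction of 2.29 ± 0.42 (adjusted p = 0.0293), lost without any 1 of 7 arrays (adjusted p of 0.0623 to 0.0878). Ly6d, which marks lymphoid and plasmacytoid precursors, had signals of 124, 137 and 152 in TGFB KO and 906, 1143 and 918 in IFNko TGFB1 KO, and an interaction of 2.59 ± 0.47 (adjusted p = 0.0261), lost without any 1 of 6 arrays. The chemokine Ccl5 rose steeply in both pairs (3.75 ± 0.21 and 4.85 ± 0.21), and its interaction of 1.09 ± 0.30 was not called (adjusted p = 0.158). The cytotoxic genes Gzmb (0.82 ± 0.40, adjusted p = 0.456) and Prf1 (0.70 ± 0.57, adjusted p = 0.69) were not called either. Of 14 checkpoint and costimulatory genes the only call was Cd274, described above, and the list median was 0.02 (-0.09 to 0.31 over the alternatives). Negative calls made up 0.627% of all genes.

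Cell cycle genes had values of 1 sign without any single call. All 38 tested had a value above 0, against 50.8% of all genes, with a median of 0.71. An unadjusted p under 0.05 was found for 21, against 11.8% of all genes in either direction, and by limma none passed the adjusted threshold. With Ifng 1 rose and 1 fell after loss of Tgfb1, and without it 25 rose and none fell. The shares over all genes were 12.2% and 11.9% with Ifng, and 12.7% and 13.1% without it. Ube2c signals were 786, 788 and 941 in Balb/c WT, 938, 1162 and 867 in TGFB KO, 963, 891 and 1018 in INFko TGFB+ and 2145, 2074 and 2102 in IFNko TGFB1 KO. This mitotic ubiquitin-conjugating enzyme was higher on all 3 IFNko TGFB1 KO arrays than on any other array, and its interaction was 1.07 ± 0.23 (adjusted p = 0.0645). Cdc6 (1.45 ± 0.32, adjusted p = 0.0755) and Nusap1 (0.99 ± 0.23, adjusted p = 0.0807) gave like values. Some cell cycle genes outside the list were called, among them Prc1 (1.17 ± 0.23), Smc4 (adjusted p = 0.0318) and Tacc3 (1.51 ± 0.30), named after their values were seen. The list median was between 0.34 and 0.82 in all alternatives, and T cell markers were highest in the same group; their part in the shift was not tested.

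**Figure D3:**
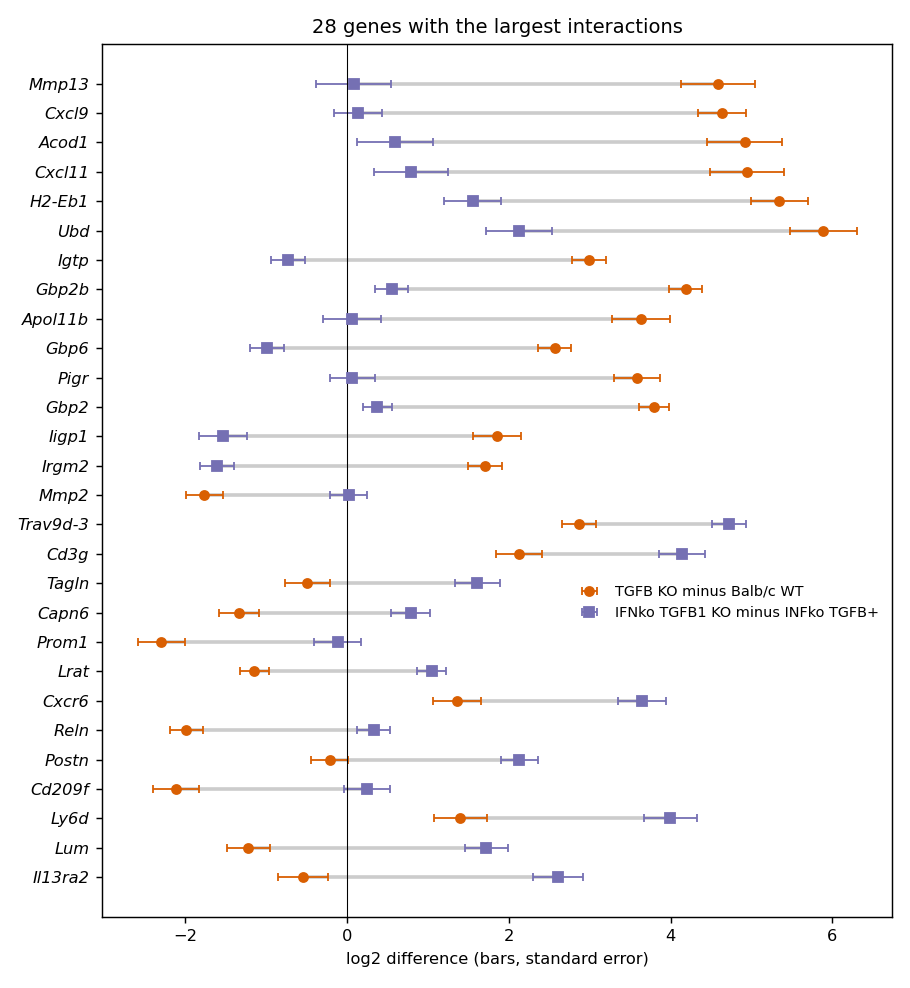
For the 14 most negative (top) and 14 most positive (bottom) called genes, circles give the log2 difference TGFB KO minus Balb/c WT and squares IFNko TGFB1 KO minus INFko TGFB+, with bars for the standard error. Circles lie right of squares for the negative genes (Mmp13, 4.59 against 0.08) and left of them for the positive genes (Il13ra2, -0.54 against 2.60).

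Several myeloid genes responded alike to loss of Tgfb1 with and without Ifng, within a stated bound. For 848 genes (6.65%), both differences passed the test in the same direction and the 95% interval of the interaction lay within 2-fold, 370 of them higher and 478 lower without Tgfb1. Lgals3 signals were 220.1, 136 and 188 in Balb/c WT, 5835, 4749.8 and 6339.7 in TGFB KO, 197, 152 and 212 in INFko TGFB+ and 3740.1, 5761 and 3343 in IFNko TGFB1 KO. The IFNko TGFB1 KO arrays overlapped those of TGFB KO, and galectin-3, a product of activated macrophages, rose by 4.73 ± 0.24 with Ifng and 4.47 ± 0.24 without it. The interval of its interaction ran from -0.99 to 0.47. Tyrobp signals were 766, 567 and 664 in Balb/c WT, 4204, 3603 and 5429 in TGFB KO, 542, 511 and 673 in INFko TGFB+ and 2907, 4354 and 2848 in IFNko TGFB1 KO. This myeloid and NK cell adaptor (DAP12) gave 2.69 ± 0.21 and 2.68 ± 0.21, with an interval of -0.67 to 0.65. The beta-glucan receptor Clec7a (3.32 and 3.54), the NADPH oxidase subunit Cyba (2.98 and 3.12) and the monocyte chemokine receptor Ccr2 (2.64 and 2.99) also rose alike within that bound. Of 25 Kupffer cell and macrophage markers none was called by limma and 7 had an unadjusted p under 0.05, against 11.8% of all genes. Their median was -0.11 (-0.46 to -0.02 over the alternatives), and 22 rose with Ifng and 23 without it, against 12.2% and 12.7% of all genes. The macrophage gene Folr2 (1.49 ± 0.31, adjusted p = 0.0551) and the perforin-like Mpeg1 (-1.52 ± 0.33, adjusted p = 0.064) came nearest the threshold, with opposite signs. Summed macrophage markers were 30214 to 32668 in TGFB KO and 22053 to 30053 in IFNko TGFB1 KO. Among 28 neutrophil and inflammatory monocyte genes, Il1b was the only call, and the chemokine Cxcl2 (-2.53 ± 0.64, adjusted p = 0.114) and the formyl peptide receptor Fpr2 (-1.46 ± 0.30, adjusted p = 0.0529) were not called. Negative calls made up 0.627% of all genes.

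Most hepatocyte gene lists had medians below 0 and few calls. Of 52 P450 and conjugation genes 1 was called (Cyp2f2), 45 were below 0 and the median was -0.40; 26 fell with Ifng after loss of Tgfb1 and 39 without it. Of 32 urea cycle and amino acid catabolism genes 30 were below 0, with a median of -0.63, and 8 fell with Ifng and 22 without it. None was called by limma, with 8 at an unadjusted p under 0.05. Over all genes, 11.8% were at such a p in either direction, the share to set beside the unadjusted counts of this paragraph. For the other counts the shares over all genes were 49.2% below 0 and 0.627% called negative. Those that fell were 11.9% with Ifng and 13.1% without it. Mat1a signals were 8968, 9299 and 9604 in Balb/c WT, 7839, 8436 and 10195 in TGFB KO, 11052, 10426 and 9942 in INFko TGFB+ and 3353, 2185 and 5911 in IFNko TGFB1 KO. The IFNko TGFB1 KO arrays were the lowest for this enzyme of S-adenosylmethionine synthesis, whose interaction of -1.33 ± 0.36 was not called (adjusted p = 0.149). Of 29 hepatocyte secreted protein and transcription factor genes 26 were below 0, with a median of -0.34. None was called by limma and 2 were at an unadjusted p under 0.05, a lower share than the 11.8% over all genes. Summed hepatocyte markers were 109982 to 129517 in TGFB KO and 85548 to 129084 in IFNko TGFB1 KO, lowest on IFNko TGFB1 KO 2, and their part in these medians was not tested. Without IFNko TGFB1 KO 2 these medians were -0.0037 for the P450 and conjugation genes, -0.25 for the urea cycle list and -0.05 for the secreted protein list. The P450 median was -0.63 without IFNko TGFB1 KO 3, and with median centring the 3 were -0.81, -1.03 and -0.68. The median of 30 fatty acid oxidation genes was 0.09, turned to -0.04 with the deposited scaling and -0.36 with median centring, and reached 0.21 without IFNko TGFB1 KO 2. Acute phase proteins had a median of -0.65 (-0.42 without Balb/c WT 3 and -1.04 with median centring) over 27 genes with none called by limma and 10 at an unadjusted p under 0.05, as for Saa1 (-2.42 ± 0.82, adjusted p = 0.258). Cell death and inflammasome genes had a median of -0.59 over 22 genes, none called by limma and 6 at an unadjusted p under 0.05, the necroptosis effector Mlkl being lowest (-2.29 ± 0.60, adjusted p = 0.135). The 26 TGF-beta pathway genes had no call by limma and 5 at an unadjusted p under 0.05, with a median of 0.17 that was 0.05 without TGFB KO 2 and -0.21 with median centring. The median of the 10 pancreas and intestine genes was -0.96 and ran from -2.29 to -0.02 as single arrays were left out. Exocrine pancreas markers summed to 3756 on INFko TGFB+ 2 and to 52.6 to 324 on the others.

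**Figure D4:**
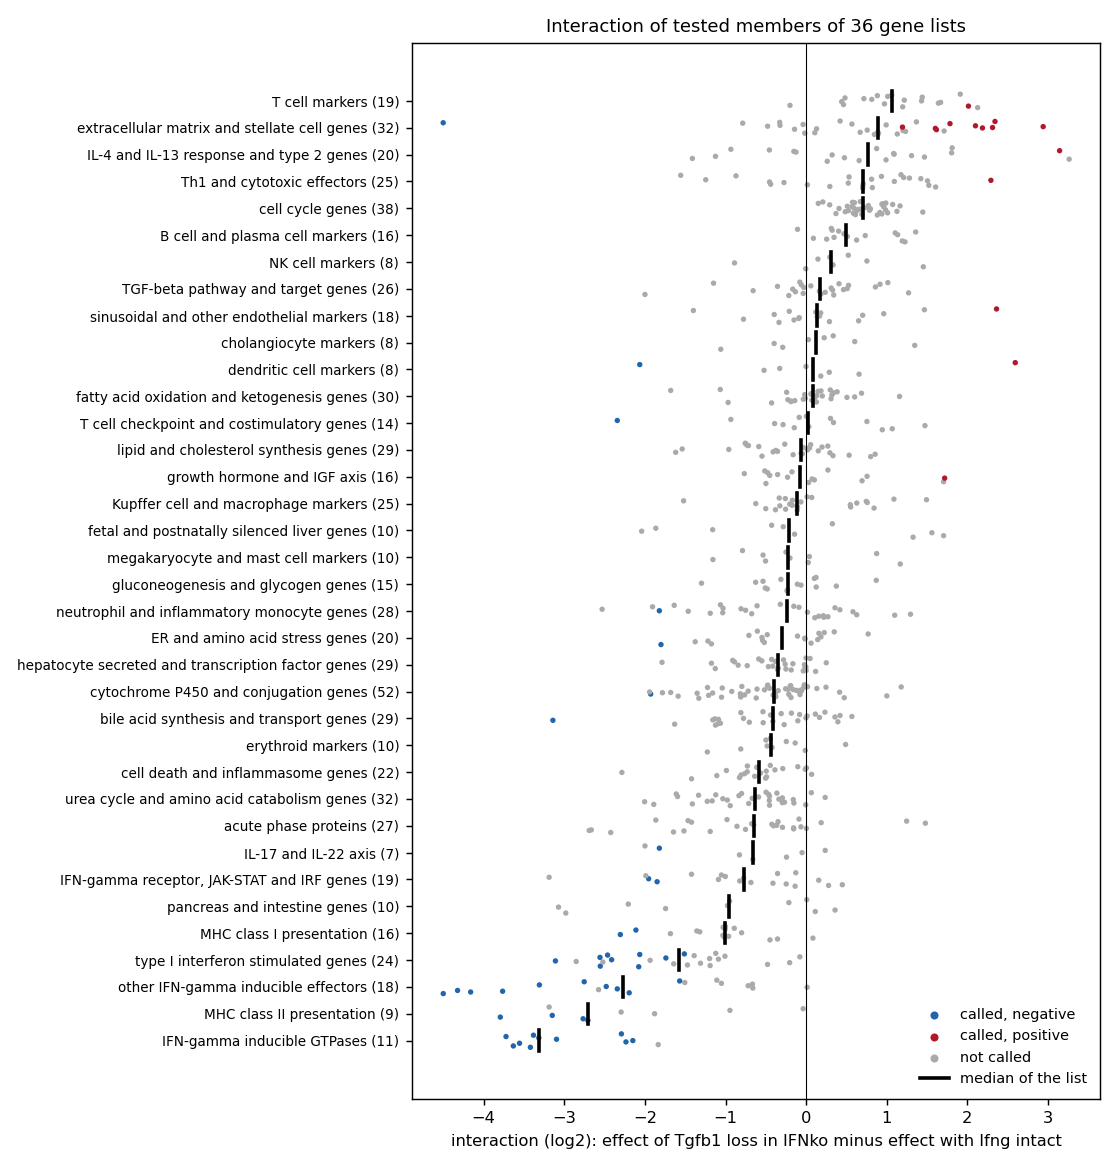
Each row is a gene list with its number of tested genes, each point a member's interaction in log2 units, and each black bar the list median; blue points are called negative, red points called positive and grey points not called. The interferon-gamma GTPases (median -3.32) and the antigen presentation and interferon lists sit lowest, and T cell markers (median 1.06) and matrix and stellate genes (0.89) highest.

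The number of calls moved with single arrays. Leaving out 1 array at a time gave 39 to 112 negative and 7 to 54 positive calls, against 80 and 31 with all 12. The negative count moved by more than 1.5 times without TGFB KO 1 (43), TGFB KO 3 (45) or INFko TGFB+ 1, 2 or 3 (49, 39 and 50). The positive count did so without Balb/c WT 1, 2 or 3 (15, 13 and 18), TGFB KO 1, 2 or 3 (15, 12 and 9), INFko TGFB+ 1, 2 or 3 (14, 7 and 10), or, upward, IFNko TGFB1 KO 3 (54). In each of these fits every gene among the 111 that was still tested kept its sign. The 14 most negative genes named here kept their calls with any array left out. Of the 14 most positive, Il13ra2, Lum, Postn, Reln and Lrat did so. Other settings also removed calls that single arrays removed. A pseudocount of 1 did so for Baat, Cd209f, Cd3g, Cxcr6, Cyp2f2, Ddit3, H2-DMa, Il1b, Ly6d, Prom1, Psmb9, Tagln and Tap1. Median centring did so for Cd3g, Mmp2, Prom1 and Tagln, and the replicate block for Cxcr6, Cyp2f2, Ddit3, H2-DMa, Ly6d, Mmp2, Tagln and Tap1. No filter did so for Cd3g, Cyp2f2, Ddit3, Il1b, Prom1, Tagln and Tap1, array weights for Cd3g, Cxcr6 and Ly6d, and the Xist covariate for Cd3g, Ddit3, Il1b and Tap1. Ddit3 also lost its call with the mean over its probe sets. On data simulated for the interaction, over 12760 genes with independent noise, the same fit found 22% of genes changed 2-fold and 59% of those changed 4-fold, none in the wrong direction. It also called 3 unchanged genes.

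**Figure D5:**
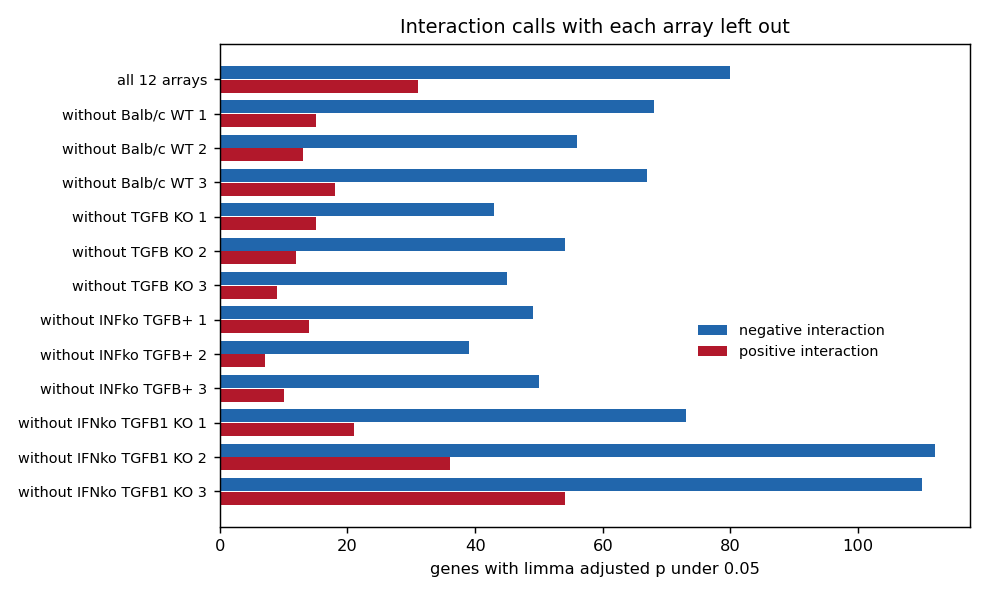
Bars give the number of genes with a called interaction (limma adjusted p under 0.05) with all 12 arrays and with each array left out, negative in blue and positive in red, on an axis that starts at 0. The count falls to 39 and 7 without INFko TGFB+ 2 and rises to 110 and 54 without IFNko TGFB1 KO 3.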

How the data were processed

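Total RNA of 12 mouse livers was prepared with Trizol and, after one-cycle biotin labelling, hybridised to 12 arrays of 45101 probe sets, per the labels. The authors deposited 1 linear intensity for each probe set and array. Read from the values, the authors had scaled each array to a common mean after trimming 2% at either end, and the signal algorithm is not given in the sources used here. Detection calls were not analysed here, and the number of arrays limits the precision.

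Samples were grouped by title. The unnumbered INFko TGFB+ array is called replicate 1. Array medians of log2(signal + 16) differed by 0.634, over the limit of 0.5 chosen for this step, so the 12 arrays were quantile normalised. Of the probe sets, 34958 carry 1 gene symbol, 932 several and 9211 none here. Symbols came from the platform annotation, 34754 of them updated through a RefSeq table (GRCm38.p6). Control probe sets (64) and those with a mean under the 40th percentile (log2 level 5.25) were left out, and the probe set with the highest mean stands for each gene. The mean is over all 12 arrays, so a gene can pass through 1 group where it is high. The added 16 shrinks differences of dim genes.

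limma 3.58.1 in R 4.3.3 fitted 4 group means (lmFit, eBayes, 8 residual and 3.44 prior degrees of freedom). P-values are two-sided and measure the spread between 3 samples a group. They were adjusted by Benjamini-Hochberg over 12760 genes. The procedure was tested on simulated data.

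The comparison, the members and the 36 gene lists (876 genes, 705 tested) were chosen with earlier results of these data known, and lists are described by counts and medians with no set test. Some lists share genes. Genes named by rule are Tgfb1 and Ifng, the 14 most negative and 14 most positive called genes (predicted names passed over) and up to 8 called genes whose 2 differences pass in opposite directions. Up to 10 genes with like differences and up to 4 members a list with the smallest p are also named. Other genes are named to account for a count, after their values were seen. Alternatives were scaling, pseudocount, filter, probe set mean, array weights, prior, replicate block, Xist level as covariate and each array left out. Cell type markers are summed deposited signals. The labels do not pair the samples by replicate number, and the main fit does not use the numbers.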

Additional observations from a re-analysis of the deposited data

Results flagged for a closer look

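The interaction is itself a test of whether the effect of Tgfb1 loss differs between mice with and without Ifng, and its 80 negative and 31 positive calls are results of that kind. Within them, 8 named genes passed limma's adjusted threshold in opposite directions in the 2 pairs. Their interactions were -3.72 for Igtp, -3.56 for Gbp6, -3.38 for Iigp1, -3.32 for Irgm2, -3.10 for Irgm1, 2.94 for Lum, -2.46 for Herc6 and -2.44 for Gdap10. Of these, Gdap10 lost its interaction call without TGFB KO 1, TGFB KO 3 or INFko TGFB+ 2, and the others kept theirs in every alternative. Whether their 2 differences still passed in opposite directions was not checked in the alternatives.

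Probe sets with no listed symbol or with several were outside the gene-level comparison. Of 4081 such probe sets tested apart, 14 had a negative and 4 a positive interaction at an adjusted p under 0.05 by limma, and the smallest adjusted p was 0.000767.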

How the results depend on the processing

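In all 24 alternatives every one of the 111 called genes that was still tested kept the sign of its interaction. Of the 49 named genes with a call, 22 kept it in all alternatives that tested them. Among these, Ly6i was tested in 19 of the 24 and Il13ra2 in 23. Ly6i dropped out whenever a TGFB KO array was left out, so how its call depends on those arrays was not tested. The call was lost in at least 1 alternative for 27, 20 of these with an array left out. Counts of calls moved by more than 1.5 times in some settings. A pseudocount of 1 gave 43 negative and 14 positive genes, and one of 64 gave 144 and 68. A trended, robust prior gave 123 and 65. Positive calls were 17 with no filter, 50 with a filter at the 60th percentile, which tests fewer genes, and 9 with median centring. Median centring also gave 893 genes lower in TGFB KO minus Balb/c WT and 988 higher in IFNko TGFB1 KO minus INFko TGFB+. Chosen after the data were seen, the deposited scaling without IFNko TGFB1 KO 1, the array that stood apart, gave 64 negative and 17 positive. With each array left out, negative calls were 39 to 112, positive calls 7 to 54, and genes lower in IFNko TGFB1 KO minus INFko TGFB+ 1089 to 1841. The cause of these moves was not tested, except that a left-out array leaves fewer samples.

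The replicate numbers were checked for pairing of the samples. Over 18 pairs of arrays with the same number, deviations correlated at -0.08 to 0.34, 14 of them not over 0.1. Pairs with different numbers correlated at -0.23 to 0.20, and 6 of 12 arrays correlated best with their own number. The highest correlation was thus between arrays of the same number, so the check does not settle whether the numbers pair the mice. The fit with the replicate number as a block gave 65 negative and 19 positive genes. With 3 mice a group, interactions under 2-fold are mostly not detectable. The choice of pseudocount moved interactions of genes with dim groups in both directions. With a pseudocount of 1, Mmp13 gave -5.98 against -4.50 in the main fit, and Cxcl11 -5.01 against -4.16. Ubd and Cd274 went the other way, at -3.50 against -3.77 and -1.98 against -2.34.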

Other observations

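Apart from the lists above, several called negative genes have roles in metabolism or transport, which does not exclude roles in immunity. They were picked out after their values were seen. The uridine phosphorylase gene Upp1 had an interaction of -2.94 ± 0.39 (limma adjusted p = 0.00518) with differences of 3.72 with Ifng and 0.78 without it. The niacin receptor gene Hcar2 gave -2.89 ± 0.44 (adjusted p = 0.0098), xanthine dehydrogenase Xdh -2.25 ± 0.35 (adjusted p = 0.0112) and the glucose transporter Slc2a1 -2.10 ± 0.38 (adjusted p = 0.0288). The NAD salvage enzyme Nampt was unlike these, with differences of 0.48 and -1.81 and an interaction of -2.29 ± 0.42 (adjusted p = 0.0301).

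Timp3, an inhibitor of metalloproteinases, had a negative interaction of -2.48 ± 0.41 (adjusted p = 0.0173), while its relative Timp2 had a positive one of 1.60 ± 0.31 (adjusted p = 0.0349). Mmp13 and Mmp2 were likewise called with opposite signs.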
